A study of Mus musculus with 6 samples.

Results

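The immediate early response genes are transcribed within minutes of a stimulus, from factors that are already present in the cell and without new protein synthesis. This report follows 10 of them, the named set Egr1, Fos, Fosb, Jun, Junb, Atf3, Ier2, Klf4, Klf6 and Dusp1, which were taken by name from the 27179 genes of the bulk count table and the 30750 genes of the UMI matrices. All 10 were found in both kinds of table, and all 10 passed the filter on low counts in the bulk libraries and the level set for the single-cell comparisons. The rule that takes them uses names and no level or test, but the set was proposed with earlier results of these data known.

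FOS, FOSB, JUN and JUNB are subunits of the AP-1 transcription factor, in which a FOS protein pairs with a JUN protein through a leucine zipper, and ATF3 is a related zipper protein that pairs with JUN. EGR1, KLF4 and KLF6 are zinc finger transcription factors, IER2 is a small nuclear regulator, and DUSP1 is a phosphatase that switches off the MAP kinases that induce the set. In heart cells these genes respond to stretch, growth factors, cytokines and stress, and they are also known to be switched on by enzymatic digestion while a tissue or culture is taken apart.

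The study grew immature cardiomyocytes (imCMs) from the hearts of newborn C57BL/6 mice (C57BL/6J in the study's methods) on cardiac fibroblasts from neonatal hearts (NFs) or adult hearts (AFs) of the same strain, and asked what adult fibroblasts do to cardiomyocyte maturation. For bulk RNA-seq the 2 kinds of co-culture gave 2 libraries each, imCM-NF and imCM-AF, of cardiomyocytes. In the study's methods the cells of both assays were dyed and sorted by dye after co-culture, while the labels describe low-speed centrifugation to part cardiomyocytes from other cells. In the study's methods the fibroblasts were passaged before use and kept in medium with serum, and relatively fewer NFs than AFs were plated, so the age of the fibroblasts and their number cannot be told apart. For single cells, 1 chip of nanowells held the cardiomyocyte fraction and another held the fibroblast fraction. The nanowells carry names: NFNCM and AFNCM, which were read as cardiomyocytes from co-culture with NFs and AFs, NF and AF, which were read as the fibroblasts from those co-cultures, and NCM0, NF0 and AF0, where the meaning of the 0 is not given in the sources used here. Names end in a number that was read as a separate cell suspension, 3 each for NFNCM and AFNCM and 2 each for the other 5 names. The labels do not say whether the bulk replicates or the suspensions came from separate cultures or animals, and the study's general statement on independent experiments names neither, so the spread between them may be technical.

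Bulk libraries held 9278909 to 12088577 counted reads. Of 2462 nanowells used, 2247 passed the filters, 170 to 523 for each name, with median totals of 16044 to 38627 UMIs (counted molecules). The chips share 269 nanowell barcodes, which are positions on a chip and not shared cells. Cardiomyocyte markers summed to 37244 to 44407 UMIs in 1e6 in the 3 cardiomyocyte names and to 263 to 5222 in the 4 fibroblast names, with the 5222 in NF0 and 3742 in NF. Fibroblast markers summed to 2703 to 8424 UMIs in 1e6 in the fibroblast names and 889 to 2491 in the cardiomyocyte names, so each fraction held some RNA of the other. In NF and NF0 the fibroblast sums, 2703 and 3875, were below the cardiomyocyte sums, 3742 and 5222. More fibroblast than cardiomyocyte marker UMIs were held by 182 of 256 NF and 235 of 306 NF0 nanowells. In 10 negative control nanowells 4 of 5052 UMIs belonged to the 10 genes.

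RefSeq promoter windows (GRCm38.p6) were available for 8 of the 10 genes. The 250 bases before the transcript start are shown for 4 of them: Fos, the gene that was called in the bulk libraries; Jun, which had the highest ratio between co-cultured cells in both chips; Atf3, whose bulk and single-cell values went in different directions; and Dusp1, the feedback phosphatase. The Fos window is chr12:85473640-85473889 on the plus strand, and the others lie on the minus strand, Jun at chr4:95052223-95052472, Atf3 at chr1:191183334-191183583 and Dusp1 at chr17:26508473-26508722. Capitals mark the letters TGACG, the half-site of the cAMP response element bound by CREB and ATF proteins, and TGACNTCA, the full element and its variants, on either strand.
Fos: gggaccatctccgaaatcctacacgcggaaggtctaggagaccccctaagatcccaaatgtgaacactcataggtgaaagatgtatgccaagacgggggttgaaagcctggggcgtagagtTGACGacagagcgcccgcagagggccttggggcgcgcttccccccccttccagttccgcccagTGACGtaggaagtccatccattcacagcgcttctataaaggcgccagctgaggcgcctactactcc
Jun: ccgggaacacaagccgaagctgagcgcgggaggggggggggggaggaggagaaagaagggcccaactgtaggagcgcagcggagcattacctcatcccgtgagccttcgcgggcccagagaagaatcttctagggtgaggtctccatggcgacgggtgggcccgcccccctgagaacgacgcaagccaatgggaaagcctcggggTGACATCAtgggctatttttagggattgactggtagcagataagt
Atf3: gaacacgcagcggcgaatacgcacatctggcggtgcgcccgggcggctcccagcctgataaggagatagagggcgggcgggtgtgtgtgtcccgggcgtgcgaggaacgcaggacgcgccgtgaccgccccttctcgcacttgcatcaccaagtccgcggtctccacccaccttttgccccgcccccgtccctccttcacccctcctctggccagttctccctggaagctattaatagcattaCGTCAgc
Dusp1: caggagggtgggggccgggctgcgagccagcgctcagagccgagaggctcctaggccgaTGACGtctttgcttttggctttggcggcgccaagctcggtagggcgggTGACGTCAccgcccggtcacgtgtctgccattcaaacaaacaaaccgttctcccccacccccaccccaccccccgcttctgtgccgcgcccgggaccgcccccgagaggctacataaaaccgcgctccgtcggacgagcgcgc

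The half-site TGACG was present before 6 of the 8 starts (Atf3, Dusp1, Fos, Fosb, Junb and Klf4), against 17.8% of all 32851 promoter windows of the same length. TGACNTCA was present before 3 starts (Dusp1, Jun and Klf6), against 7.49% of all windows. The motifs were chosen after these windows had been read, so the shares describe the windows and cannot test an excess. In Dusp1 the full palindrome TGACGTCA lay 143 to 136 bases before the start and overlapped 2 of its half-sites, in Jun the variant TGACATCA lay 45 to 38 bases before the start, and in Fos the nearer half-site lay 66 to 62 bases before the start. The serum response element core (CArG box), present in 1.47% of all windows, and the AP-1 letters TGANTCA, present in 6.75%, were not found in these 8 windows, which says only that these letters are not in these 250 bases.

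In the bulk comparison of imCM-AF with imCM-NF, Fos was the 1 gene of the 10 that changed by the study's threshold (adjusted p under 0.05 and a log2 change over 0.58), and it was higher with AFs. The normalised level of Fos (in CPM, counts scaled to a library of 1e6) was 139 and 127 with NFs against 256 and 278 with AFs. Each imCM-AF library lay well above both imCM-NF libraries. The log2 fold change was 1.0 ± 0.10 (SE, n = 2 against 2; edgeR adjusted p = 2.74e-06). Over all 14041 genes tested, 11.1% were called, 6.15% as higher, and 4.99% as lower, so 1 called member of 10 is close to the background.

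**Figure D1:**
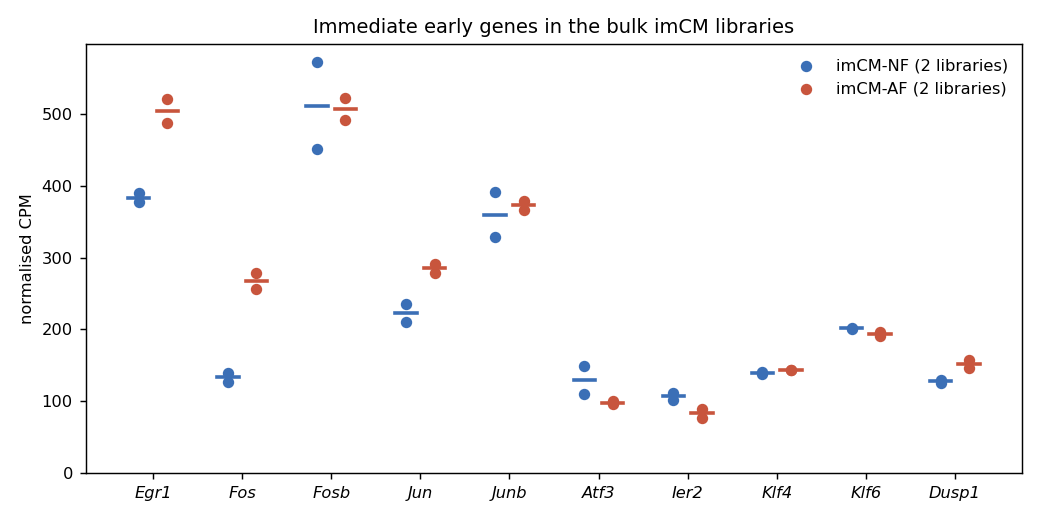
Normalised CPM (y axis) of the 10 genes (x axis) in the 2 imCM-NF libraries (blue) and the 2 imCM-AF libraries (red); points are libraries and short lines are means. Fos stands apart between the groups at 127 to 139 against 256 to 278 CPM, while the points of Fosb and Junb overlap.

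Of the other AP-1 genes, Jun had 235 and 210 CPM with NFs against 291 and 279 CPM with AFs, a log2 change of 0.36 ± 0.10 (SE; edgeR adjusted p = 0.0180) that was below the fold threshold. Fosb had 573 and 451 CPM with NFs against 492 and 522 CPM with AFs. Junb had 329 and 391 CPM with NFs against 379 and 367 CPM with AFs. The groups overlapped for Fosb and Junb, and their log2 changes were -0.01 ± 0.13 and 0.05 ± 0.11 (SE). The sign of the Fosb and Junb values turned when imCM-NF replicate 1 was left out (0.17 and -0.07), and that of Fosb also with library totals (0.03).

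Atf3 lay in the other direction, with 149 and 110 CPM with NFs against 95.9 and 100.0 CPM with AFs. Its log2 change of -0.40 ± 0.12 (SE; edgeR adjusted p = 0.0194) depended on single libraries, being -0.17 without imCM-NF replicate 1 (edgeR adjusted p = 0.216) and -0.35 when imCM-AF replicate 1 was left out (edgeR adjusted p = 0.0618). Ier2 had 102 and 111 CPM with NFs against 89.3 and 76.6 CPM with AFs, with a log2 change of -0.36 ± 0.10 (SE; edgeR adjusted p = 0.0134). The libraries of the groups did not overlap for either gene, and both changes were below the fold threshold.

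Among the zinc finger factors, Egr1 had 390 and 377 CPM with NFs against 488 and 521 CPM with AFs, a log2 change of 0.40 ± 0.11 (SE; edgeR adjusted p = 0.0147). Klf4 stayed within 138 to 144 CPM and Klf6 within 191 to 202 CPM in the 4 libraries. Their log2 changes were 0.05 ± 0.09 and -0.06 ± 0.10 (SE), and neither passed the test. The phosphatase gene Dusp1 had 126 and 130 CPM with NFs against 158 and 146 CPM with AFs, with a log2 change of 0.25 ± 0.10 (SE; edgeR adjusted p = 0.0619).

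At an adjusted p under 0.05 without the fold threshold, 3 of the 10 genes were higher with AFs (Fos, Egr1 and Jun) and 2 were lower (Atf3 and Ier2), against 12.5% and 14.5% of all genes tested and 27.0% in either direction. When 1 library was left out, the edgeR adjusted p ran from 0.0200 (without imCM-NF replicate 1) to 0.161 (without imCM-AF replicate 2) for Egr1, from 0.0102 (without imCM-NF replicate 1) to 0.107 (without imCM-AF replicate 1) for Jun and up to 0.276 for Ier2 when imCM-AF replicate 2 was the library left out, so that these calls depended on single libraries. Libraries of the groups did not overlap for 5 genes that were higher (32.1% of all genes tested) and 3 that were lower (33.8%). The median log2 change of the 10 was 0.05, beside 0.00 over all genes tested. Per kilobase of exon, the level in the imCM-NF libraries ran from 45.5 CPM per kb for Klf4 to 216 CPM per kb for Junb, and Fos went from 66.1 and 60.2 to 121 and 132 CPM per kb. The summed level of fibroblast markers was 15248 and 16715 CPM with NFs against 10656 and 8430 CPM with AFs, with 7 of 8 markers lower at an adjusted p under 0.05 and none at 0. Endothelial markers summed to 810 and 838 CPM with NFs against 542 and 522 CPM with AFs, with 4 of 6 lower at an adjusted p under 0.05. Cardiomyocyte markers summed to 44015 and 32192 CPM with NFs against 41725 and 45870 CPM with AFs. Of these 10 markers, 2 were higher at an adjusted p under 0.05 and none was lower. The part of these shifts in the values of the 10 genes was not tested, and in bulk RNA fewer cells of a type and less RNA per cell cannot be told apart.

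The wider pathway was read from lists of genes with the same fit. Of 29 other immediate early genes tested, 6 were higher and 3 lower at an adjusted p under 0.05, against 12.5% and 14.5% of all genes tested. Of these, 2 passed the fold threshold as higher, against 6.15% of all genes: the kinase gene Plk2, with 189 and 167 CPM with NFs against 267 and 290 CPM with AFs, and Arc, a weakly expressed gene with 5.02 and 3.47 against 10.1 and 8.91 CPM. Of 9 genes for other zipper proteins, 2 were called as higher, against the same 6.15%. Ddit3, which encodes the stress factor CHOP, had 31.1 and 34.0 CPM with NFs against 72.5 and 75.7 CPM with AFs (log2 change 1.18 ± 0.10, SE; edgeR adjusted p = 2.68e-07), and Maf had 2.56 and 2.15 against 3.83 and 4.62 CPM.

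Of 11 inflammatory primary response genes, which are induced by NF-kB and cytokines on a like time scale, 5 were called as higher with AFs, against 6.15% of all genes tested. Its summed level was 1427 and 1659 CPM with NFs against 1548 and 1555 CPM with AFs, and Nfkbiz was lower (log2 change -0.32 ± 0.10, SE; edgeR adjusted p = 0.0252). Ccl2 and Nfkbia had log2 changes of -0.26 ± 0.12 and -0.28 ± 0.10 (SE) that did not pass the test. Nfkbiz and Ccl2 were named after their values were seen. The prostaglandin synthase gene Ptgs2 had 34.7 and 38.2 CPM with NFs against 74.7 and 76.3 CPM with AFs (log2 change 1.05 ± 0.10, SE; edgeR adjusted p = 9.07e-07), and the cytokine gene Il6 had 21.0 and 25.8 against 46.6 and 52.4 CPM. Socs3, an inhibitor of cytokine signalling, had 24.7 and 26.3 against 48.6 and 44.6 CPM, and the chemokine gene Cxcl2 had 11.8 and 12.2 against 20.8 and 20.8 CPM. Of the kinases and factors upstream of the 10 genes, none passed the fold threshold, with 2 of 19 higher and 2 lower at an adjusted p under 0.05 and changes of -0.56 to 0.32. Of 14 feedback inhibitors of the MAP kinase pathway, 1 was higher and 4 were lower at that adjusted p, and of 15 heat shock genes 2 were higher. Over all genes tested, 12.5% were higher and 14.5% lower at an adjusted p under 0.05.

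The single-cell values were summed over the kept nanowells of a name and are given as UMI CPM, UMIs scaled to a total of 1e6. They come from 1 chip for each fraction, so no test was made, and the intervals are 95% intervals that cover counting error only. The summed level of the 10 genes was highest in AF at 1850 UMI CPM, followed by AFNCM at 1446, AF0 at 1082, NF at 843, NCM0 at 841, NFNCM at 800 and NF0 at 585. By the ranges over suspensions, AF0 and NF stood apart in this order and so did NFNCM and NF0, while the other neighbours overlapped. Cardiomyocyte and fibroblast names were on different chips, and the place of one kind against the other cannot be told apart from the chip.

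Cardiomyocyte nanowells from AF co-culture held more of these transcripts than those from NF co-culture. The summed level was 1095, 1606 and 1506 UMI CPM in the 3 AFNCM suspensions and 718, 798 and 871 in the 3 NFNCM suspensions. Every AFNCM suspension was above every NFNCM suspension, and the ratio over all nanowells was 1.81 (1.77 to 1.85). The ratio was above 1 for all 10 genes, between 1.59 for Fos and 2.27 for Jun, and 7 of the 10 had suspensions that did not overlap, against 15.1% of 6118 genes measured at 20 UMI CPM or more. None was lower, against 7.67% of those genes. With 1 UMI CPM added to each level, the median ratio of the 10 was 1.77, beside 1.06 over those 6118 genes.

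**Figure D2:**
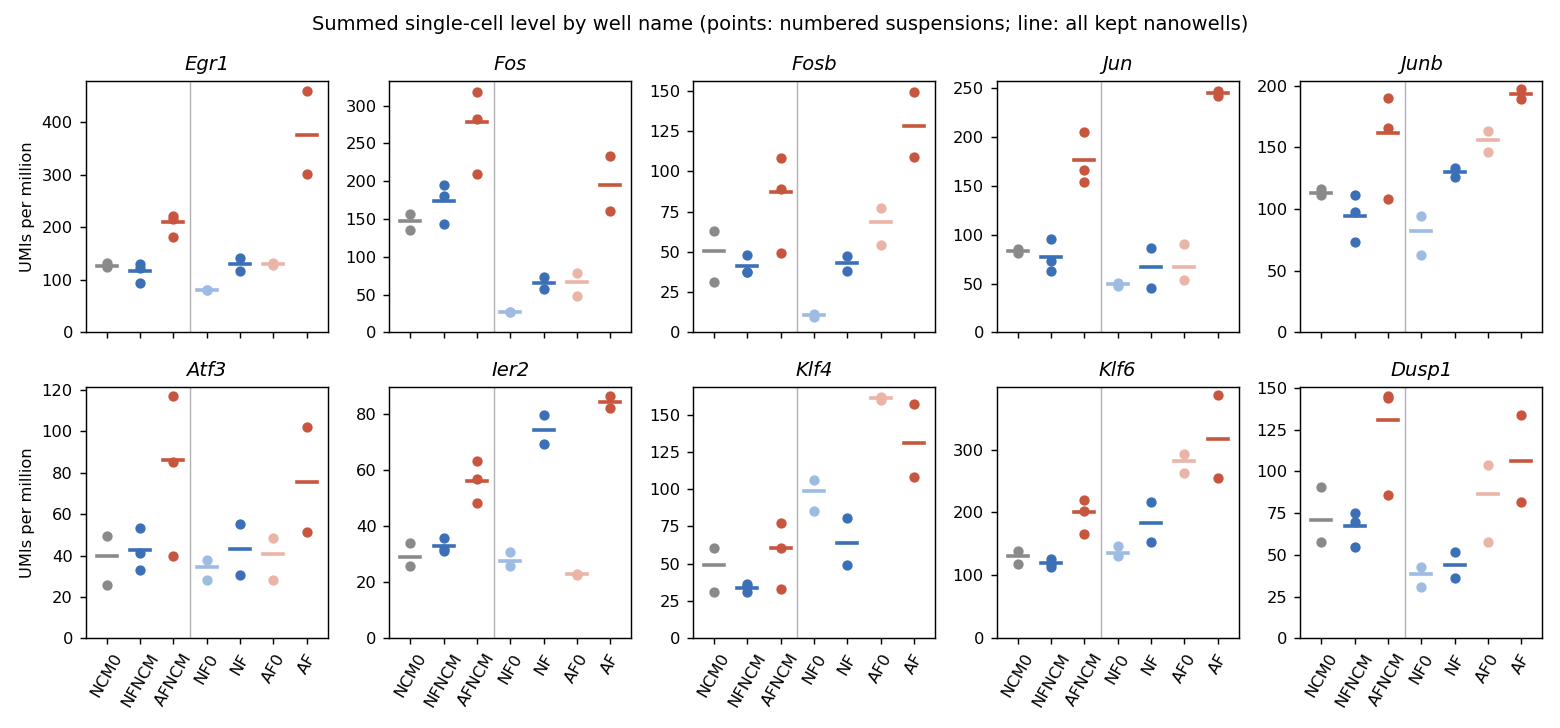
UMI CPM (y axis) of each of the 10 genes by nanowell name (x axis), cardiomyocyte fraction left of the grey line and fibroblast fraction right of it; points are numbered suspensions and lines are sums over all kept nanowells. AFNCM lies above NFNCM in each panel, AF lies above NF in each panel, and Klf4 is the panel where AF0 and NF0 lie above AF and NF.

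Fos was measured at 209, 318 and 282 UMI CPM in the AFNCM suspensions and 144, 181 and 195 in the NFNCM suspensions, a ratio of 1.59 (1.51 to 1.68). Its order over the names was AFNCM at 278, AF at 195, NFNCM at 174, NCM0 at 148, AF0 at 67.1, NF at 65.5 and NF0 at 27.1 UMI CPM. In this order NCM0 and AF0 stood apart and so did NF and NF0, and the other neighbours overlapped. Jun was measured at 166, 205 and 154 UMI CPM in AFNCM and 63.0, 95.4 and 72.9 in NFNCM, and its ratio was 2.27 (2.11 to 2.44).

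Fosb was measured at 49.0, 89.2 and 108 UMI CPM in AFNCM and 37.4, 37.4 and 47.8 in NFNCM, with a ratio of 2.11 (1.91 to 2.34). Junb was measured at 108, 166 and 190 against 97.2, 73.5 and 111, and its lowest AFNCM suspension lay inside the NFNCM range. Atf3 was measured at 39.8, 117 and 85.2 against 41.2, 33.0 and 53.4, again with the first AFNCM suspension inside the NFNCM range, and its ratio was 2.02 (1.83 to 2.24). The first AFNCM suspension was the lowest of the 3 for 8 of the 10 genes, and it also had the lowest median total, 15050 UMIs against 20817 and 24214.

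Egr1 was measured at 181, 222 and 216 UMI CPM in AFNCM and 94.1, 130 and 123 in NFNCM, a ratio of 1.8 (1.69 to 1.91). Klf6 was measured at 166, 219 and 203 against 118, 113 and 126, and Dusp1 at 86.0, 144 and 145 against 54.7, 69.5 and 75.3. None of these 3 genes had overlapping suspensions. Ier2 was the least abundant of the set in AFNCM at 56.9, 48.1 and 63.1, against 31.9, 31.0 and 35.7 in NFNCM, and Klf4 overlapped at 33.3, 77.5 and 60.6 against 36.2, 35.2 and 30.9.

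The AFNCM nanowells also held more fibroblast RNA. Fibroblast markers summed to 2093 to 2783 UMI CPM over the AFNCM suspensions and 731 to 1190 over the NFNCM suspensions, with none at 0. Of the 8 markers, 6 were higher in AFNCM without overlap, against 15.1% of all genes measured, and none was lower, against 7.67%. Postn went the other way over all nanowells, at 199 UMI CPM in AFNCM and 268 in NFNCM. Cardiomyocyte markers summed to 34417 to 40185 and 37861 to 47006, and endothelial markers to 183 to 254 and 14.7 to 117. A stricter rule asked for at least 50 UMIs of cardiomyocyte markers and 20 times as many of them as of fibroblast markers. It left 271 of 515 AFNCM and 394 of 523 NFNCM nanowells and was chosen after seeing the data. The ratio of the summed level was then 1.89 (1.83 to 1.95), beside 1.81 over all nanowells, and Junb, Atf3, Klf4 and Klf6 overlapped. The part of fibroblast RNA in these ratios was not tested. Fos was higher in these stricter nanowells than over all, at 363 in AFNCM and 223 in NFNCM, while Klf6 was lower at 137 and 76.0 and Klf4 at 39.0 and 21.8 UMI CPM.

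Bulk and single-cell ratios were set side by side for the same contrast of AF with NF co-culture. Fos had a bulk ratio of 2.01 and a single-cell ratio of 1.59, Jun 1.28 and 2.27, and Egr1 1.32 and 1.8, all in the same direction. Atf3 had a bulk ratio of 0.759 and a single-cell ratio of 2.02, and Ier2 0.778 and 1.70, in opposite directions. The bulk calls of both genes depended on single libraries, and the single-cell suspensions of Atf3 overlapped. Fosb, Junb, Klf4 and Klf6 had bulk ratios of 0.959 to 1.04 and single-cell ratios of 1.69 to 2.11. Fibroblast markers, taken as a sum, also ran in opposite directions. In bulk they summed to 15248 and 16715 CPM with NFs against 10656 and 8430 CPM with AFs. In single cells they summed to 941 UMI CPM in NFNCM and 2491 in AFNCM. The marker Postn was lower with AFs in both assays. It had 1177 and 1417 CPM with NFs against 390 and 318 CPM with AFs in bulk, and 268 UMI CPM in NFNCM against 199 in AFNCM. The difference between the assays was not tested, since they differ in library chemistry, in handling and in cells.

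**Figure D3:**
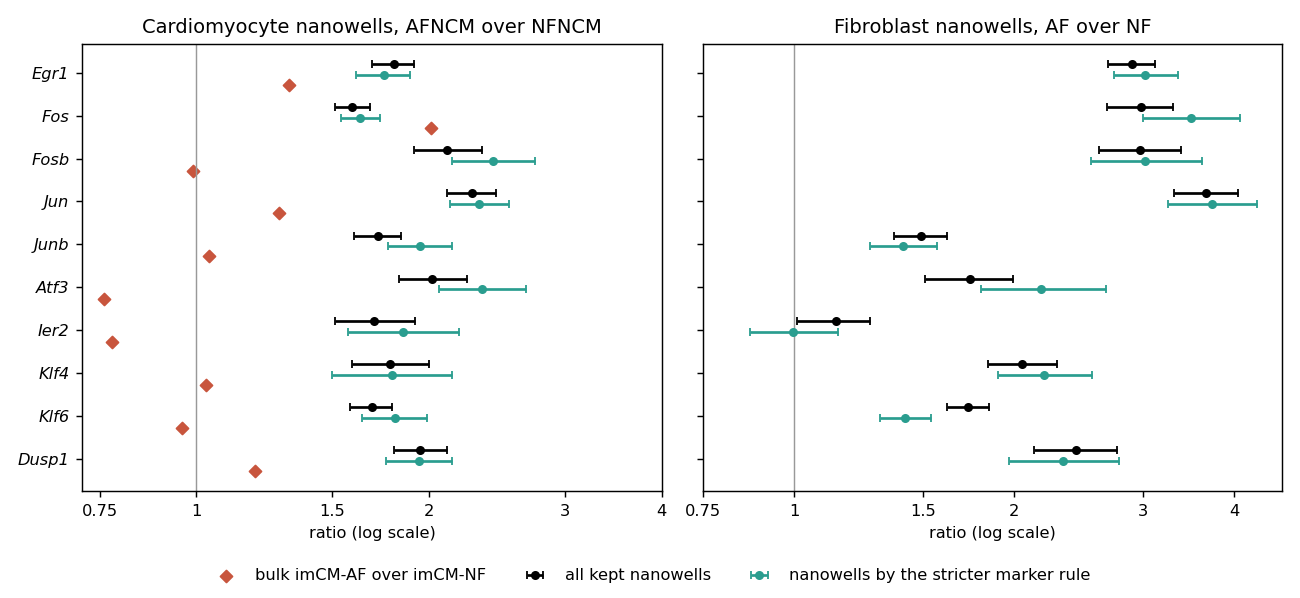
Ratios (x axis, log scale) of each gene (y axis) between AF and NF co-culture, for cardiomyocyte nanowells with the bulk fold as red diamonds (left) and for fibroblast nanowells (right); bars are 95% counting intervals, black for all kept nanowells and green for the stricter marker rule. All black points lie above 1, while bulk diamonds run from 0.759 for Atf3 to 2.01 for Fos.

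Against NCM0, the level in NFNCM was close and that in AFNCM was higher. The summed level was 800 and 869 UMI CPM in the 2 NCM0 suspensions, inside the NFNCM range of 718 to 871, and the ratio of NFNCM to NCM0 was 0.951 (0.919 to 0.984). All 10 genes had NFNCM and NCM0 suspensions that overlapped, while 14.2% of all genes measured were higher and 14.5% lower in NFNCM without overlap. This overlap depended on the choice of nanowells. Fos was higher in NFNCM without overlap with no limit on the UMI total (ratio 1.30), by marker majority (1.26) and by the stricter marker rule (1.28), Klf4 was lower by the last 2 of these (0.532 and 0.545), and Junb was lower by marker majority (0.833). Single ratios ran from 0.697 (0.599 to 0.812) for Klf4 to 1.18 (1.09 to 1.27) for Fos. The ratio of AFNCM to NCM0 was 1.72 (1.67 to 1.77), with 5 genes not overlapping (Egr1, Fos, Jun, Ier2 and Klf6) against 23.9% of all genes measured, and none lower, against 16.0%. With no limit on the UMI total 8 genes did not overlap, and by either marker rule 4. These comparisons share the NCM0 nanowells.

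In the fibroblast fraction, AFs from co-culture held more of 9 of the 10 transcripts than NFs from co-culture, with no overlap of suspensions, against 27.2% of all genes measured. The summed level was 1588 and 2143 UMI CPM in AF and 821 and 868 in NF, a ratio of 2.19 (2.13 to 2.26), and with 1 UMI CPM added to each level the median ratio of the 10 was 2.21 beside 1.05 over all genes measured. Jun had 247 and 242 UMI CPM in AF and 86.8 and 45.2 in NF, a ratio of 3.66 (3.31 to 4.05), and Fos had 160 and 234 against 73.0 and 57.3, a ratio of 2.98 (2.68 to 3.30). Both genes stood clear of the spread between suspensions.

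Fosb had 109 and 149 UMI CPM in AF and 47.4 and 38.2 in NF, and Egr1 had 301 and 460 against 118 and 142. Dusp1 had 81.5 and 134 against 36.1 and 52.0, and Klf4 108 and 157 against 48.8 and 80.5. These 4 genes had ratios of 2.05 to 2.97. Junb had a ratio of 1.49 (1.37 to 1.62) and Klf6 of 1.73 (1.62 to 1.85). Ier2 was nearest to 1, at 86.4 and 81.9 in AF and 69.3 and 79.6 in NF with a ratio of 1.14 (1.01 to 1.27), and Atf3 was the gene that overlapped, at 51.3 and 102 against 55.3 and 30.6.

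NF nanowells held cardiomyocyte markers at 3631 and 3863 UMI CPM in the 2 suspensions and AF nanowells at 1125 and 154, with all 10 of these markers lower in AF without overlap and none at 0. Fibroblast markers summed to 2168 and 3286 in NF and 6620 and 10448 in AF. In nanowells with at least 2 times as many fibroblast as cardiomyocyte marker UMIs, 209 of AF and 131 of NF, the ratio of the summed level was 2.12 (2.04 to 2.21), that of Fos was 3.49 and that of Jun 3.73. In the same nanowells Ier2 was at 85.7 and 85.9 UMI CPM, a ratio of 0.998 (0.871 to 1.15).

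The AF0 and NF0 nanowells differed in the same direction for most genes. The summed level was 1004 and 1129 UMI CPM in AF0 and 548 and 607 in NF0, a ratio of 1.85 (1.79 to 1.91), with 8 genes higher in AF0 without overlap (31.3% of all genes measured) and 1 lower (29.4%). The highest ratio was that of Fosb, at 54.4 and 77.0 against 9.82 and 11.6 UMI CPM, 6.27 (5.18 to 7.63). The gene that was lower was Ier2, at 22.5 and 22.9 against 30.6 and 25.8, 0.824 (0.687 to 0.988). Its suspensions overlapped with no limit on the UMI total, at a ratio of 1.0 (0.878 to 1.15), and by the stricter marker rule, at 1.12 (0.897 to 1.41), and no gene of the 10 was lower without overlap in either. Heat shock genes, which also respond to handling, summed to 8542 UMI CPM in AF0 and 5955 in NF0, and cardiomyocyte markers to 263 and 5222.

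Most of the 10 genes were higher in fibroblasts from co-culture than in the 0 nanowells, for NFs and for AFs. The ratio of the summed level was 1.44 (1.39 to 1.49) for NF over NF0, with 6 genes higher without overlap against 18.2% of all genes measured, and 1.71 (1.67 to 1.75) for AF over AF0, with 7 higher against 31.6%. Ier2 had ratios of 2.69 (2.34 to 3.09) and 3.70 (3.16 to 4.37), Egr1 of 1.62 (1.48 to 1.77) and 2.90 (2.71 to 3.11), and Fos of 2.42 (2.09 to 2.79) and 2.91 (2.64 to 3.20). Jun was at 53.3 and 90.5 UMI CPM in AF0 and 242 and 247 in AF, a ratio of 3.63 (3.31 to 3.99), against 1.35 (1.20 to 1.53) for NF over NF0, where the suspensions overlapped. The compared nanowells also differed in content. Fibroblast markers summed to 3089 UMI CPM in AF0 and 8424 in AF, and to 3875 in NF0 and 2703 in NF. Cardiomyocyte markers summed to 263 in AF0 and 667 in AF, and to 5222 in NF0 and 3742 in NF. Heat shock genes summed to 8542 in AF0 and 5284 in AF, and to 5955 in NF0 and 5199 in NF. The part of these differences in the 10 genes was not tested.

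Klf4 went the other way in both kinds of fibroblast. It was at 85.4 and 106 UMI CPM in NF0 and 48.8 and 80.5 in NF, a ratio of 0.650 (0.582 to 0.724). In AF0 it was at 160 and 162, and in AF at 108 and 157, a ratio of 0.814 (0.752 to 0.881). It was the 1 gene of the 10 that was lower in co-culture without overlap in either comparison, against 28.8% and 31.2% of all genes measured. With no limit on the UMI total the suspensions overlapped in both comparisons, at ratios of 0.843 and 0.877. Klf6 and Dusp1 had ratios of AF to AF0 of 1.12 and 1.23 with overlapping suspensions.

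**Figure D4:**
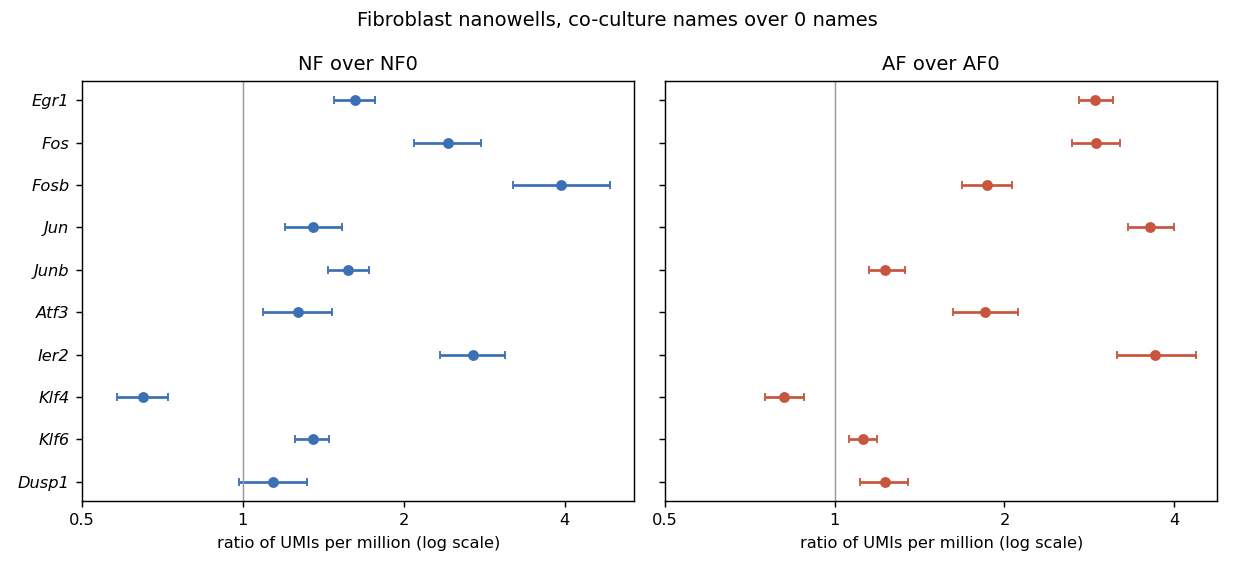
Ratio of UMI CPM (x axis, log scale) in fibroblast nanowells of the co-culture names over the 0 names, NF over NF0 (left) and AF over AF0 (right), for each gene (y axis); bars are 95% counting intervals. Klf4 is the gene left of 1 in both panels, at 0.650 and 0.814, and Ier2 has the highest ratio in the right panel, 3.70.

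Detection of each transcript was also counted per nanowell. After thinning to 5000 UMIs, which left 169 to 438 nanowells of a name, Fos was detected in 50.7% of AFNCM (45.9 to 55.5) and 43.7% of NFNCM nanowells (38.8 to 48.6, exact binomial), and in 8.68% of NF0 and 34.6% of AF nanowells. Egr1 was detected in 46.6% of AFNCM and 33.4% of NFNCM, Dusp1 in 34.2% and 19.8%, and Jun in 38.6% and 26.1%. Not thinned, the mean share over the 10 genes was 53.9% in AFNCM and 38.9% in NFNCM, and thinned it was 33.7% and 23.1%.

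At least 5 of the 10 genes were found together in 28.8% of AFNCM and 10.2% of NFNCM nanowells, in 35.1% of AF and 9.42% of NF, and in 21.9% of AF0 and 2.08% of NF0. Over the AFNCM suspensions that share was 17.0%, 32.1% and 33.5%, and over the NFNCM suspensions 8.46%, 11.2% and 10.9%. The 10% of nanowells with the most UMIs of the 10 genes held 26.8% of these UMIs in AFNCM and 29.0% in NFNCM.

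**Figure D5:**
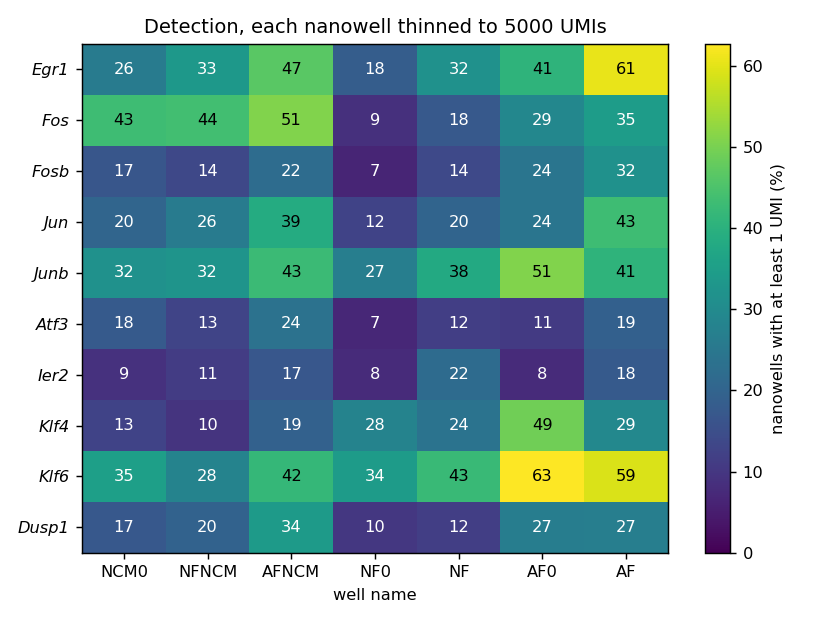
Share of nanowells (%) with at least 1 UMI of each gene (rows) by nanowell name (columns), each nanowell thinned to 5000 UMIs; the number in a cell is the share. AFNCM is above NFNCM in every row, and the lowest Fos share, 8.68%, is in NF0.

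Across the 2247 nanowells, with values centred within each name, the 10 genes varied together weakly, with a median Pearson r of 0.13 over the 45 pairs. The highest were Fos with Dusp1 and Fos with Jun (r = 0.22 each) and Jun with Dusp1 (r = 0.21). With the mean of the other 9, r was between 0.16 for Klf4 and 0.34 for Jun. These are descriptions over cells of 2 chips, in which all genes of a nanowell share its depth. The log of the UMI total had r = 0.26 with the mean of the 10.

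Among the genes outside the set whose values were most like its mean were Ccn1, a secreted matrix protein gene (r = 0.32), Nfkbia, the inhibitor of NF-kB (0.29), and the growth arrest gene Btg2 (0.26). Below them came the Notch target Hes1 and the kinase gene Plk2 (0.25 each), the stress gene Ppp1r15a (0.24), the nuclear RNA Malat1 (0.23), and the chaperone gene Hspa5 and the cyclin gene Ccnl1 (0.22 each). Over 6058 genes the median r was 0.05 and the 99th percentile 0.16. Ccn1 was measured at 352 UMI CPM in AFNCM and 179 in NFNCM, and Nfkbia at 568 and 390. In the bulk libraries Ccn1 had 550 and 557 CPM with NFs against 628 and 577 CPM with AFs. Nfkbia had 225 and 255 against 197 and 199 CPM there, and neither gene was called. Ccn1, Btg2 and Plk2 are also on the list of other immediate early genes, and Nfkbia is on the inflammatory list.

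Of 21 other immediate early genes measured at that level, 14 were higher in AFNCM than in NFNCM without overlap of suspensions, against 15.1% of all genes measured, with a median ratio of 1.58. The upstream kinases and factors had a median ratio of 1.06 and heat shock genes of 1.09, near the 1.06 of all genes measured. Other lists lay higher, with median ratios of 1.38 over 4 genes for other zipper proteins, 1.39 over 4 feedback inhibitors and 1.44 over 8 inflammatory genes. The inflammatory genes varied in different ways over the cardiomyocyte names, and 3 of the 8 measured at that level were higher in AFNCM than in NFNCM without overlap. Il6 was at 59.7 UMI CPM in AFNCM, 2.53 in NFNCM and 14.3 in NCM0, Ptgs2 at 7.09, 6.05 and 21.0, Socs3 at 16.2, 6.35 and 6.18, and Cxcl2 at 55.8, 36.2 and 11.3.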

How the data were processed

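Bulk RNA-seq libraries (2 imCM-NF, 2 imCM-AF) and 2 nanowell single-cell libraries were analysed. The deposited bulk values are raw gene counts, which the authors made by aligning reads to mm10 with Subread (1.4.6-p1 in the submitters' processing notes) and counting unique reads with featureCounts. The deposited single-cell values are UMI counts for each nanowell and gene, made with STAR (2.5.2b) and featureCounts. A deposited report gives aligned read pairs and read pairs left after a screen for contaminants. The percent aligned was taken here as the first over the second. A deposited table of the authors' own fold changes on a log2 scale was not used. The 3.52% of bulk counts in rows with no gene symbol stayed in the library totals and the tests.

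Genes with a CPM over 1 in at least 2 libraries were tested with edgeR 4.0.16 (R 4.3.3), TMM scaling and the quasi-likelihood test, with Benjamini-Hochberg adjustment over all genes tested. Genes were called at adjusted p under 0.05 and an absolute log2 change over 0.58. In simulated data for this comparison with 200 of 14041 genes changed by 1.5 on the log2 scale, 195 were recovered and 3 called falsely.

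A nanowell entered if it showed 500 genes or more, if more than 50% of its reads aligned, and if its UMI total was under 1e6 and lay no further than 2 SD from the average, which left 1513 of 1648 nanowells of the co-culture names and 734 of 814 of the 0 names. Spike-ins and 34 mitochondrial genes were dropped, and no doublet caller was run. Genes with UMIs in fewer than 10 kept nanowells stayed in the UMI totals. They were left out of the shares over all genes and of the correlations. Levels are summed UMI CPM (UMIs scaled to 1e6) with exact Poisson intervals, ratios have exact conditional binomial intervals, and shares were taken after thinning to 5000 UMIs. UMIs are counted molecules; intervals cover counting error only. Correlations used the log of UMIs per 10000 plus 1. Calculations used Python 3.11.15 with scipy 1.17.1.

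The genes named outside the set were the members of other lists that were called in the bulk libraries, at most 4 of a list by size of change, and the 10 genes most correlated with the mean of the set, of which 1 is not reported here. The members and lists were chosen with earlier results of these data known, and the promoter motifs after the windows had been read. Alternatives were RLE scaling, library totals, DESeq2 1.42.0, limma-voom (limma 3.58.1), other filters, leaving out each library, a replicate block, and other choices of nanowells and depth.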

Additional observations from a re-analysis of the deposited data

Results flagged for a closer look

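Ier2, the small nuclear regulator, was the gene whose contrast of adult with neonatal fibroblasts ran in opposite directions in different nanowells. Its level was higher in every suspension of AFNCM than of NFNCM, with a ratio of 1.70, and higher in every suspension of AF than of NF, with a ratio of 1.14. In the 0 nanowells it was lower in every suspension of AF0 than of NF0, with a ratio of 0.824. The difference between these contrasts was not tested, and with 2 or 3 suspensions of a name it rests on few values. The lower level in AF0 depended on the choice of nanowells: the ratio of AF0 to NF0 was 1.0 with no limit on the UMI total and 1.12 by the stricter marker rule, with overlapping suspensions in both, and 0.790 by marker majority. By the stricter marker rule the ratio of AF to NF was 0.998.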

How the results depend on the processing

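Fos was called in the bulk libraries under each alternative run, with log2 changes of 0.95 to 1.08. By adjusted p alone 5 of the 10 genes and 3789 of all genes were called. Leaving out 1 library in turn gave 1 to 2 called members and 879 to 1929 called genes; the lowest was without imCM-NF replicate 2, where Atf3 was also called at -0.59, and 988 were called without imCM-AF replicate 2. Leaving out single libraries gave log2 changes of -0.17 to 0.17 for Fosb (0.04 when imCM-AF replicate 1 was the one left out) and -0.07 to 0.19 for Junb. Library totals gave 0.03 for Fosb. The cause was not tested. Same-numbered libraries share only a number, their deviations correlated at -0.15, and the replicate block gave 1430 called genes and 1 called member, with edgeR adjusted p of 0.0900 for Egr1 and 0.0753 for Jun. DESeq2 gave adjusted p of 0.0610 for Atf3 and 0.0650 for Ier2. A crossed pairing, added after seeing the data, gave 1668 genes and 1 member.

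For the single-cell sums in UMI CPM, no limit on the UMI total gave 781 in NCM0, 1424 in AFNCM, 528 in NF0 and 1902 in AF. Nanowells by marker majority gave 1398 in AFNCM and 806 in NF, and the stricter marker rule, chosen after seeing the data, gave 793 in NCM0, 759 in NFNCM, 544 in NF0 and 879 in NF. Weighing each nanowell the same gave 857 in NFNCM, 570 in NF0, 878 in NF, 1145 in AF0 and 1767 in AF. The ratio of AFNCM to NFNCM was then 1.69, 1.76 by marker majority and 1.89 by the stricter rule, and that of AF to NF was 2.01, 2.31 and 2.12, and 2.29 with no limit on the UMI total. Mean detection shares thinned to 2000 UMIs were 12% in NCM0, 11.9% in NFNCM, 19.9% in AFNCM, 9.34% in NF0, 12.2% in NF, 18.1% in AF0 and 20.3% in AF, and without thinning 37.1%, 38.9%, 53.9%, 35.7%, 40.7%, 69.1% and 59.8%. With 2 libraries a group and 1 chip a fraction, precision is limited, differences between nanowell names have no replicate test, and shares depend on depth.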

Other observations

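Positive control nanowells gave 54 UMIs of the 10 genes among 68465 UMIs, in 9 of 10 nanowells. Sgk1, a kinase gene of the other immediate early list, was measured at 8.24 UMI CPM in NCM0, 42.9 in NFNCM and 108 in AFNCM, and Klf2, a zinc finger factor, at 18.5, 23.7 and 54.9. Klf2 was at 129 UMI CPM in AF, 43.3 in NF, 21.8 in AF0 and 18.5 in NF0. In the bulk libraries Klf2 had 48.0 and 48.4 CPM with NFs against 60.5 and 58.4 CPM with AFs, and Sgk1 had 105 and 112 against 104 and 92.5 CPM. Malat1, the most abundant of the genes that varied with the set, had a mean of 515 CPM in imCM-NF and 1380 CPM in imCM-AF (log2 change 1.42 ± 0.17, SE; edgeR adjusted p = 1.64e-05), against 17965 UMI CPM in NFNCM and 18459 in AFNCM. These genes were chosen after their values were seen.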
